A study of Rattus norvegicus with 30 samples.

Results

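The microRNAs (miRNAs) of the paired miR-23a/27a/24-2 and miR-23b/27b/24-1 gene clusters were followed in regenerating rat liver. Members were chosen by name and not by their measured values, though earlier results of these data were known. The members were rno-miR-23a, rno-miR-27a, rno-miR-23b, rno-miR-27b and rno-miR-24 (rno for Rattus norvegicus, left out below), without the passenger (star) strands. They made up 5 of the 388 rat miRNA names on the hepatectomy chips, 5 of the 680 names on the sham chips and 5 of the 376 names on both. Liver came from male Wistar rats, whose age the labels do not give. The animals were sampled at 0, 2, 6, 12, 24 and 48 h and 5 d after a 70% partial hepatectomy, which removes that share of the liver and lets the remnant regrow, or at 12, 24 and 48 h after a sham laparotomy, which opens the abdomen without resection. Each of the 10 groups held 3 arrays described as biological replicates, 21 for hepatectomy and 9 for sham, 30 in all, and the design has no sham group at 0 h. Total RNA that retained its small fraction was hybridised to 1-colour microfluidic chips (febit), on which each bound miRNA serves as the primer of its own labelling with biotin. The number of arrays limits the precision of every value, and p-values measure the spread between arrays of the same group.

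miRNAs are short RNAs that guide Argonaute proteins to messenger RNAs, mainly by pairing through bases 2 to 8, the seed, and lower the output of those messages. The miR-23, miR-27 and miR-24 hairpins lie next to each other in a pair of paralogous clusters, and the hairpins of each cluster can be cut from a shared primary transcript. In mouse liver progenitor cells, the miR-23b cluster is known to repress Smad proteins of transforming growth factor beta signalling. miR-27a and miR-27b are known regulators of lipid metabolism and adipocyte differentiation, miR-24 is known in human cells to repress cell cycle genes such as MYC, and miR-23 and miR-27 are abundant in endothelial cells.

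The mature sequences are shown because they decide what the a and b members share and what a probe must tell apart. They are from RefSeq (GRCr8), 5′ to 3′, with the seed in capitals.
miR-23a: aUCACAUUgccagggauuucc
miR-23b: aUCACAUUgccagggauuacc
miR-27a: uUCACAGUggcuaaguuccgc
miR-27b: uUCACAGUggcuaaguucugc
miR-24: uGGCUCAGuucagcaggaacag
miR-23a and miR-23b differed at 1 of 21 bases, U19A counted from the 5′ end of miR-23a, and miR-27a and miR-27b at 1 of 21 bases, C19U counted from the 5′ end of miR-27a. Each pair therefore shared its whole seed, and among 693 mature rat names in the RefSeq table no other name carried either seed. The miR-24 seed occurred in no other name. The miR-23a cluster lay on the minus strand of chromosome 19, with mature miR-23a at chr19:40859778-40859798, miR-27a at chr19:40859614-40859634 and a copy of miR-24 at chr19:40859481-40859502. Its 3 hairpins spanned 389 bp, and none lay inside a gene of the RefSeq gene table. The miR-23b cluster lay on the minus strand of chromosome 17, with mature miR-23b at chr17:1819405-1819425, miR-27b at chr17:1819163-1819183 and the other copy of miR-24 at chr17:1818672-1818693. Its hairpins spanned 814 bp and lay within Aopep, a protein-coding aminopeptidase gene. The arrays cannot assign miR-24 to either cluster, because both loci give the same mature sequence. The share of signal that a probe takes from the paralogue with 1 differing base was not tested.

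Levels below are log2 of background-corrected, quantile-normalized spot intensity, averaged over the 15 (hepatectomy) or 22 (sham) spots of a name and differences between 2 members on an array are read only for their change over time, since the levels of different probes share no zero. Median raw intensity was 976 to 1328 on 13 hepatectomy arrays, 544 to 608 on the other 8 and 296 to 408 on the 9 sham arrays. All 3 arrays at 24 h and 2 of 3 at 0 h were among the brighter 13. The background that the authors subtracted was 840 to 1200 on these 13 and 400 to 544 on the other 8 hepatectomy arrays. Brighter here thus means a higher raw intensity with background included. The spread of signal on an array, from the median to the 95th percentile on the log2 scale, also differed, with 1.69, 0.85 and 0.78 on the 24 h arrays against 1.88, 1.46 and 2.34 on the 0 h arrays. The members moved with these measures. Within hepatectomy times, arrays of higher raw intensity had lower levels than the others for miR-23a (-0.58, limma adjusted p = 0.00775), miR-23b (-0.51, adjusted p = 0.0158), miR-27b (-0.60, adjusted p = 0.0261) and miR-24 (-0.77, adjusted p = 0.00685), whereas miR-27a differed by -0.28 (adjusted p = 0.171). These 4 of 5 members stood beside 74 of 388 names called, 19.1%.

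After hepatectomy, the 4 members of the miR-23 and miR-27 families had their lowest mean over all arrays at 24 h. On the brighter arrays alone, miR-23a was lower at 48 h (mean 8.53 of 2 arrays) than at 24 h (8.65 of 3). There miR-27a stood at 7.57 on 1 array at 2 h, 7.93 at 12 h and 7.95 at 24 h. miR-23b and miR-27b stayed lowest at 24 h. By 5 d miR-23a, miR-23b and miR-27b lay back near the 0 h level, and miR-27a stood at -0.33 against 0 h (SE 0.26). The mean of miR-24, also lowest at 24 h, differed from 0 h by less than its SD there. At 24 h the 4 were between 1.77-fold and 2.18-fold below 0 h, with no overlap between the normalized levels of the 2 times. Of all names, 12.4% were lower without overlap. The size depended on the processing. Without background correction the 4 log2 differences were only -0.44 to -0.30. The median of all 5 members was -0.83 on the scale used here, -0.38 without background correction and -1.75 in the authors' processed values. In the authors' background-subtracted intensities, which are not normalized between arrays, the 2 times overlapped for all 4. miR-23a, for example, stood there at 608, 336 and 184 at 24 h against 696, 280 and 1256 at 0 h. None of the 4 normalized differences passed the limma test over all 388 names, with adjusted p between 0.0575 and 0.074. In whole-liver RNA, fewer cells of a type and less RNA per cell cannot be told apart.

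miR-23a, the a-cluster member that shares its seed with miR-23b, had levels of 8.99, 8.63 and 8.34 at 24 h against 9.78, 9.11 and 9.80 at 0 h. The highest 24 h array lay below the lowest 0 h array. Its log2 difference was -0.91 (SE 0.31, 1.88-fold lower, limma adjusted p = 0.0707). Over the whole course, the group mean of miR-23a was 9.56 ± 0.39 at 0 h and stayed there through 2 h (9.53 ± 0.45) and 6 h (9.48 ± 0.57), was 9.20 ± 0.43 at 12 h, reached 8.65 ± 0.33 at 24 h and 8.79 ± 0.52 at 48 h, and stood at 9.57 ± 0.20 on 5 d (SD, n = 3 each). The 24 h and 48 h means differed by less than their SDs, as did those of 0, 2 and 6 h and 5 d. At 48 h the individual levels were 8.28, 8.77 and 9.33, the last of them inside the 0 h range, and the difference from 0 h was -0.77 (SE 0.31, adjusted p = 0.213).

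miR-23b had levels of 9.21, 8.60 and 8.89 at 24 h against 10.04, 9.35 and 9.79 at 0 h. The groups did not overlap, and the gap between the highest 24 h array and the lowest 0 h array was small beside the range at either time. The log2 difference was -0.83 (SE 0.29, 1.78-fold lower, limma adjusted p = 0.074). Its mean was 9.73 ± 0.35 at 0 h, with 2 h (9.63 ± 0.52) and 6 h (9.74 ± 0.40) close by, 9.27 ± 0.60 by 12 h, 8.90 ± 0.31 by 24 h, 9.27 ± 0.22 by 48 h and 9.76 ± 0.23 on 5 d (SD, n = 3 each). From low to high the order was 24 h, 12 and 48 h, 2 h, 0 h, 6 h and 5 d, and each time differed from the next by less than the larger of their SDs, with 48 h against 24 h as the exception.

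miR-27a had levels of 7.90, 7.79 and 8.17 at 24 h against 8.76, 8.44 and 9.13 at 0 h. It was already at 8.24, 7.82 and 8.03 at 12 h, and was at 8.03, 8.34 and 7.80 at 48 h. Every array at 12, 24 and 48 h lay below every 0 h array. The log2 differences from 0 h were -0.74 at 12 h (SE 0.26, limma adjusted p = 0.107), -0.82 at 24 h (SE 0.26, adjusted p = 0.0575) and -0.72 at 48 h (SE 0.26, adjusted p = 0.141). Its mean was 8.77 ± 0.34 at 0 h, 8.22 ± 0.57 by 2 h, 8.44 ± 0.42 by 6 h, 8.03 ± 0.21 by 12 h, 7.95 ± 0.19 by 24 h, 8.06 ± 0.27 by 48 h and 8.44 ± 0.24 on 5 d (SD, n = 3 each). The 5 d mean lay below the 0 h mean by less than the 0 h SD, and the means of 12, 24 and 48 h did not differ beyond their SDs.

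miR-27b, the b-cluster paralogue, had levels of 8.02, 7.74 and 7.66 at 24 h against 8.77, 8.51 and 9.52 at 0 h. All 3 arrays at 24 h were below all 3 at 0 h, and the third 0 h array stood apart upward. The log2 difference was -1.13 (SE 0.37, 2.18-fold lower, limma adjusted p = 0.0665). Its mean was 8.93 ± 0.52 at 0 h, close to that in 2 h liver (8.85 ± 0.85) and 6 h liver (8.83 ± 0.77), then 8.45 ± 0.38 by 12 h, 7.81 ± 0.19 by 24 h, 8.43 ± 0.08 by 48 h and 8.84 ± 0.15 on 5 d (SD, n = 3 each). The SD was largest at 2 h and 6 h, where the second replicate gave 7.88 and 7.94, against 9.45 and 9.23 for the others at 2 h and 9.30 and 9.26 for the others at 6 h. On those 2 arrays the authors' deposited background-subtracted medians were 72 and -16, so the signal of miR-27b was close to or below background there. miR-27a was likewise at -8 on the second 2 h array. At 24 h these medians were also low, 312, 184 and 112 for miR-27b and 328, 152 and 184 for miR-27a. The subtracted backgrounds of those arrays were 960, 840 and 912. At 0 h the medians were 208, 144 and 936 for miR-27b and 256, 192 and 544 for miR-27a.

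miR-24, the member encoded in both clusters, had levels of 9.85, 8.80 and 9.19 at 24 h against 9.60, 9.47 and 9.71 at 0 h. The groups overlapped. The log2 difference was -0.31 (SE 0.41, 95% interval -1.20 to 0.57, limma adjusted p = 0.688), and it turned to 0.79 with the authors' background-subtracted values and to 0.48 with the spread of signal in the fit, while the other scalings kept it negative. Its group means lay between 9.28 ± 0.53 at 24 h and 9.59 ± 0.12 at 0 h (SD, n = 3 each). At 2 h, 6 h and 48 h the second replicate, at 8.55, 8.52 and 8.59, was below both of the others.

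**Figure D1:**
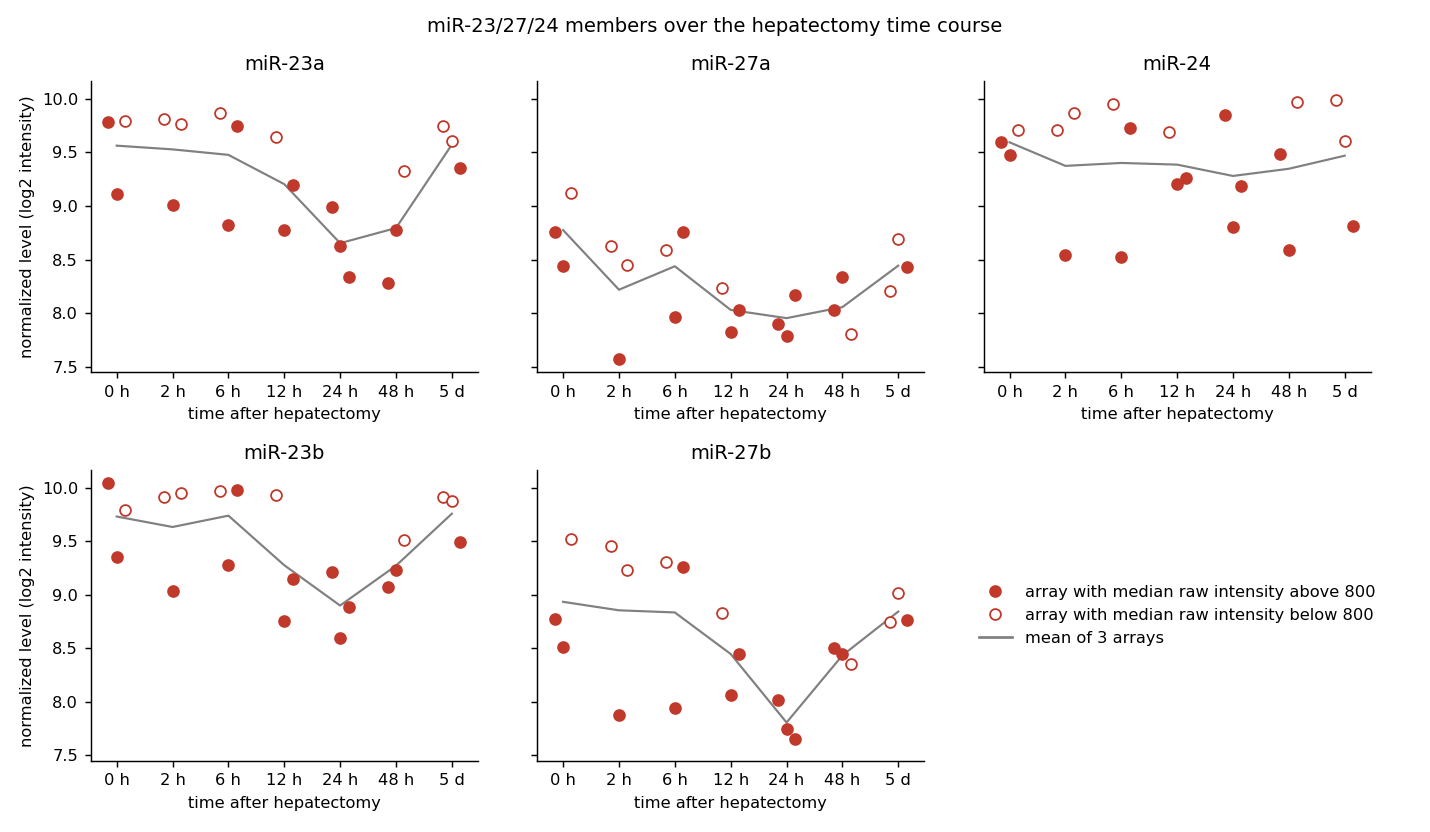
Level of each member (y axis, log2 normalized intensity) on every hepatectomy array by time after the operation (x axis, h or d). Filled points are arrays with a median raw intensity above 800, open points those below, and the grey line joins the means of 3 arrays. miR-23a, miR-23b, miR-27a and miR-27b dip at 24 h, where all 3 arrays are of the brighter kind, and the miR-24 arrays at 24 h overlap those at 0 h.

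Tested over all names, 0 of 5 members passed at 24 h against 0 h by limma, beside 30 of 388 names, 7.73%. At an unadjusted p under 0.05, 4 members were lower, beside 46 names lower, 11.9%, and the same 4 had arrays below those of 0 h without overlap, beside 48 names, 12.4%. The members' median difference was -0.83, against 0.07 over all names. The call turned on the settings. All 4 members passed when the authors' processed values were used, when arrays were weighted and when the 24 h and 0 h arrays were fitted alone. With the replicate number as a block 4 members passed as well. With the intensity class as a block 2 passed, miR-23a (-0.72, limma adjusted p = 0.0488) and miR-27b (-0.93, adjusted p = 0.0443). Without the second 0 h array 3 passed, miR-23a at -1.14, miR-27a at -0.99 and miR-27b at -1.34. Among the brighter arrays alone, the differences of the 4 were -0.83 to -0.65 and 0 of 5 passed. With the spread of signal in the fit, a setting chosen after the values were seen, they were -0.48 to -0.33, and 0 of 5 passed (adjusted p 0.131 to 0.273).

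At the other times, 0 of 5 members passed against 0 h. The names called by limma over the same comparisons were 0% (2 h), 0.258% (6 h), 2.84% (12 h), 4.12% (48 h) and 0.258% (5 d). At an unadjusted p under 0.05, miR-27a passed at 2 h beside 6.19% of names, no member at 6 h beside 6.7%, miR-27a at 12 h beside 18.8%, miR-23a and miR-27a at 48 h beside 16% and no member at 5 d beside 13.7%. At 12 h, the differences were -0.36 for miR-23a, -0.45 for miR-23b, -0.49 for miR-27b and -0.21 for miR-24, with adjusted p from 0.453 to 0.864, so only miR-27a kept clear of the 0 h arrays, 1 member beside 9.79% of names. At 48 h they were -0.46 for miR-23b (adjusted p = 0.453), -0.50 for miR-27b (adjusted p = 0.517) and -0.25 for miR-24 (adjusted p = 0.743). The 48 h arrays of miR-27b, at 8.51, 8.44 and 8.35, lay just below the 0 h arrays without overlap, as did those of miR-27a, 2 members in all beside 34 names, 8.76%. The moderated F test over the 7 times called 0 of 5 members, beside 9 of 388 names, 2.32%, with adjusted p from 0.353 to 0.456 for the 4 and 0.995 for miR-24. At an unadjusted p under 0.05, miR-23a and miR-27a passed it, beside 11.1% of names.

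The return after 24 h was seen in the same 4 members. miR-23a had 9.75, 9.61 and 9.36 at 5 d against 8.99, 8.63 and 8.34 at 24 h, a difference of 0.92 (SE 0.31, limma adjusted p = 0.296). miR-23b had 9.91, 9.87 and 9.49 at 5 d, a difference of 0.86 (SE 0.29, adjusted p = 0.296). miR-27b had 8.74, 9.02 and 8.77 at 5 d, a difference of 1.04 (SE 0.37, adjusted p = 0.296). miR-27a had 8.21, 8.69 and 8.43 at 5 d, the smallest difference of the 4 at 0.49 (SE 0.26, adjusted p = 0.589). In all 4 the 5 d arrays lay above the 24 h arrays without overlap, beside 22 names higher, 5.67%. miR-24 had 9.99, 9.60 and 8.81 at 5 d, which overlapped its 24 h arrays (difference 0.19, adjusted p = 0.94). Tested over all names, 0 of 5 members passed by limma, beside 2 of 388 names, 0.515%, and 3 had an unadjusted p under 0.05, beside 21 names higher, 5.41%. Only 1 of 3 arrays at 5 d was of the brighter kind, against 3 of 3 at 24 h. With that class in the fit 0 members passed, and with array weights 3 passed.

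After sham laparotomy alone, no member differed between times by the test, but the size of the differences depended on the scaling. The members' median difference of 24 h against 12 h sham liver was 0.03 on the quantile scale used here, 0.81 with each array centred on its median, 0.85 with centring on the 75th percentile, 0.67 in the authors' processed values and 1.21 without normalization. On the sham scale, which is normalized apart from the hepatectomy scale, miR-23a had 10.64, 10.88 and 10.99 at 12 h, 10.89, 10.87 and 10.83 at 24 h and 10.59, 10.95 and 10.68 at 48 h. miR-23b averaged 11.08 ± 0.08 at 12 h, 11.08 ± 0.06 at 24 h and 10.93 ± 0.23 at 48 h (SD, n = 3 each). miR-24 had 10.58, 10.31 and 10.58 in 12 h sham liver, 10.48, 10.39 and 10.31 in 24 h sham liver and 10.48, 10.37 and 10.43 in 48 h sham liver. For these 3 members the sham arrays of different times overlapped. Their mean levels lay at the 98.1 to 98.8 percentile of the 680 names, where quantile normalization leaves little room, so the narrow spread of these levels is no measure of how steady the members were. In the authors' background-subtracted intensities miR-23b, for example, stood at 2053, 4721 and 2921 on the 24 h sham arrays. miR-27a had 8.24, 8.44 and 7.86 at 12 h, 8.31, 9.02 and 8.60 at 24 h and 8.09, 8.88 and 8.85 at 48 h. miR-27b had 8.74, 9.14 and 8.71 at 12 h, 9.13, 9.53 and 9.20 at 24 h and 8.78, 9.54 and 9.38 at 48 h. Both were higher in the mean at 24 h than at 12 h, with overlapping arrays. By limma 0 of 5 members passed in any of the 3 pairs of sham times, with adjusted p of 0.537 to 0.997, beside 0% of 680 names, and 1 member, at 24 h against 12 h, had an unadjusted p under 0.05, beside 8.97% of names (6.62% and 2.35% in the other pairs). The F test over sham times called 0 members and 0% of names, and at an unadjusted p under 0.05 it called 0 members and 6.62% of names.

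Set against sham arrays of the same time, the miR-23 and miR-27 members were lower after hepatectomy, most clearly at 24 h. These values are on another scale, normalized over all 30 arrays and the 376 shared names, on which equal values mean that a name held the same rank on its array. Hepatectomy and sham arrays stood on different chip layouts and differed in raw intensity throughout, so operation and layout cannot be told apart in these comparisons. At 24 h, 4 of 5 members passed, all lower, beside 43 of 376 names called, 11.4%, and 26 lower, 6.91%. The same 4 had hepatectomy arrays below the sham arrays without overlap, beside 67 names, 17.8%. The members' median difference was -0.97, against 0.01 over all names.

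miR-23a had levels of 8.63, 8.65 and 8.39 in hepatectomy liver at 24 h against 9.99, 9.99 and 9.99 in sham liver. The 3 sham values are equal because miR-23a held the same rank on each of those arrays, so the SD there understates the spread of the intensities. The SE and p-value below pool the spread over all groups, these equal values included, and so share that limit. The difference was -1.43 (SE 0.21, 2.69-fold lower, limma adjusted p = 0.000157), the smallest p-value of the 376 names. The size depended on the scaling, with -3.20 after median centring, -3.13 after 75th percentile centring, -3.73 in the authors' processed values and -2.84 without normalization, and miR-23a passed under each. In the authors' background-subtracted intensities, which are not normalized between arrays, miR-23a stood at 608, 336 and 184 in hepatectomy liver against 1532, 3737 and 2173 in sham liver. These groups did not overlap either.

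miR-27b had levels of 7.81, 7.60 and 7.43 in hepatectomy liver at 24 h against 9.11, 9.15 and 9.01 in sham liver. The groups were separated by more than the range of either. The difference was -1.48 (SE 0.30, 2.78-fold lower, limma adjusted p = 0.00228). miR-27a had 7.71, 7.65 and 8.07 against 8.58, 8.85 and 8.65 in sham liver, without overlap, a difference of -0.88 (SE 0.25, 1.85-fold lower, adjusted p = 0.0206). miR-23b had 8.85, 8.78 and 10.07 against 10.29, 10.17 and 10.17 in sham liver, a difference of -0.97 (SE 0.26, 1.96-fold lower, adjusted p = 0.0143). The third hepatectomy array lay just under the sham arrays and above the other two by more than 1 on the log2 scale. The calls for miR-27a and miR-23b rested on single arrays: without the first 24 h hepatectomy array their adjusted p were 0.0635 and 0.0815, without the second 0.0813 and 0.0996, and miR-27a also lost its call without the second (0.103) or the third (0.0531) sham array. miR-23a and miR-27b passed whichever of the 6 arrays was left out. All 4 stayed lower under every scaling compared, but without normalization between arrays miR-27a (-0.97, adjusted p = 0.242) and miR-27b (-1.87, adjusted p = 0.0599) did not pass. miR-27a also missed the threshold with the authors' background-subtracted values (-1.55, adjusted p = 0.0545) and with the spread of signal in the fit (-0.74, adjusted p = 0.0654). miR-23b differed by -3.77 to -2.81 under median centring, 75th percentile centring, the authors' processed values and no normalization. Under the same 4 settings miR-27b differed by -3.22 to -1.87 and miR-27a by -1.80 to -0.97.

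miR-24 had levels of 10.17, 9.29 and 10.84 in hepatectomy liver at 24 h against 9.80, 9.66 and 9.66 in sham liver. The hepatectomy arrays lay on both sides of the sham arrays. The difference was 0.39 (SE 0.30, limma adjusted p = 0.418), and its direction depended on the scaling: it was -2.11 with each array centred on its median (adjusted p = 0.00398), -2.04 with centring on the 75th percentile (adjusted p = 0.000923), -2.23 in the authors' processed values (adjusted p = 0.00155) and -1.76 without normalization. Under the first 3 of these, 5 of 5 members passed as lower. In the authors' background-subtracted intensities miR-24 stood at 1097, 432 and 576 in hepatectomy liver against 1284, 3013 and 1648 in sham liver.

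**Figure D2:**
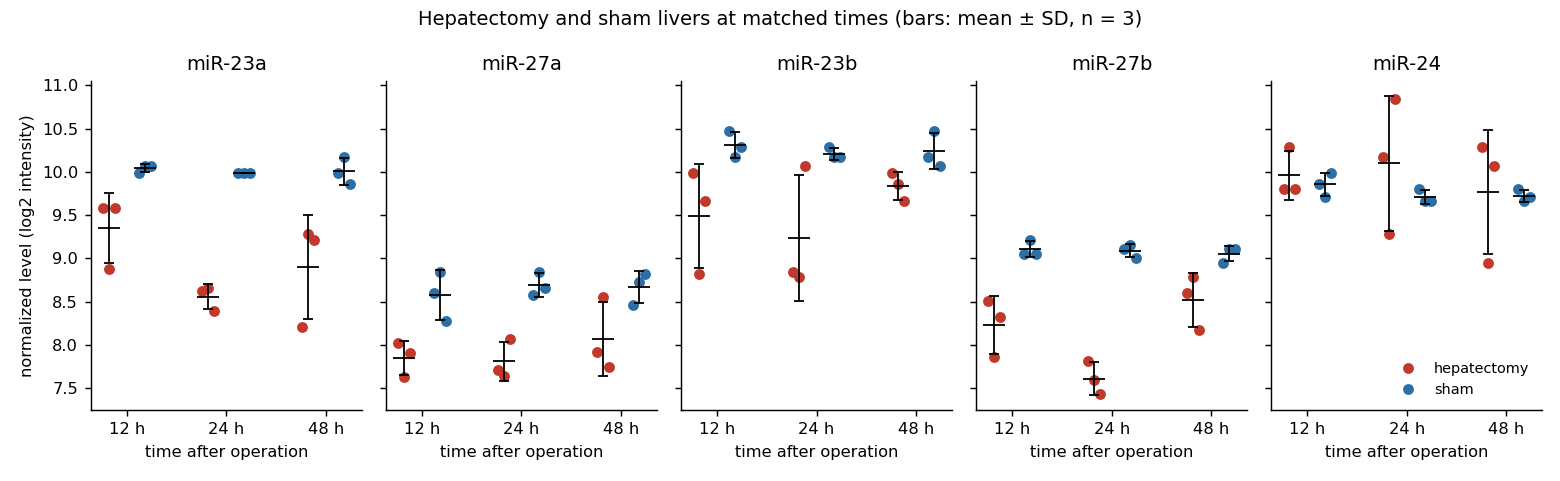
Level of each member (y axis, log2 intensity normalized over all 30 arrays) in hepatectomy (red) and sham (blue) liver at 12, 24 and 48 h. Points are arrays and bars are the mean ± SD of 3. At 24 h the red points of miR-23a, miR-23b, miR-27a and miR-27b lie below the blue ones, and those of miR-24 spread around them, a placing that turned with the scaling.

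At 12 h the same 4 members were lower in hepatectomy liver without overlap, beside 49 names, 13%, and none passed the test. miR-23a had 9.59, 8.88 and 9.59 in hepatectomy liver against 9.99, 10.07 and 10.07 in sham liver (difference -0.69, limma adjusted p = 0.0819). miR-23b had 9.99, 8.82 and 9.66 against 10.47, 10.17 and 10.29 in sham liver (-0.82, adjusted p = 0.0819). Each was low on the second hepatectomy array. miR-27a had 8.02, 7.63 and 7.90 against 8.60, 8.85 and 8.27 in sham liver (-0.72, adjusted p = 0.0899), and miR-27b had 8.51, 7.86 and 8.33 against 9.06, 9.21 and 9.06 in sham liver (-0.88, adjusted p = 0.0899). Without normalization, where the median of all names itself moved to 0.64, these were 0.26 for miR-27a and 0.10 for miR-27b. miR-24 differed by 0.11 (adjusted p = 0.907), and by -1.07 with centring on the 75th percentile. By limma 0 of 5 members passed, beside 4 of 376 names, 1.06%, and 4 had an unadjusted p under 0.05 in the lower direction, beside 9.57% of names. With the authors' processed values 2 passed.

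At 48 h only miR-23a passed, beside 9 of 376 names called, 2.39%, and 8 lower, 2.13%. It had 8.20, 9.29 and 9.21 in hepatectomy liver against 9.99, 10.17 and 9.86 in sham liver, a difference of -1.10 (SE 0.21, 2.15-fold lower, limma adjusted p = 0.00444), again the smallest p-value of the 376 names. Its SE, pooled over all groups, again takes in the equal sham values of 24 h. Without the first 48 h hepatectomy array the difference was -0.76 (adjusted p = 0.0559), so the call rested on that array. miR-27b had 8.60, 8.78 and 8.18 in hepatectomy liver against 8.95, 9.11 and 9.11 in sham liver (-0.53, adjusted p = 0.433). miR-23b had 9.99, 9.86 and 9.66 against 10.17, 10.47 and 10.07 in sham liver (-0.40, adjusted p = 0.489). Neither pair of groups overlapped, so 3 members with miR-23a were clear of sham, beside 39 names, 10.4%. miR-27a had 7.92, 8.56 and 7.74 against 8.47, 8.73 and 8.82 in sham liver (-0.60, adjusted p = 0.25), and its second hepatectomy array lay inside the sham range. miR-24 differed by 0.04 (adjusted p = 0.939), and by -1.67 with centring on the 75th percentile. With that centring all 5 members passed as lower, and without normalization none did.

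An offset between the chip layouts that is fixed on the log2 scale cancels when a change between times is compared between the operations. After quantile normalization levels are set by rank, so such an offset need not cancel fully in the values that follow. From 12 to 24 h, the change in hepatectomy minus that in sham was -0.74 for miR-23a (SE 0.30), -0.60 for miR-27b (SE 0.43), -0.16 for miR-27a (SE 0.35), -0.15 for miR-23b (SE 0.37) and 0.28 for miR-24 (SE 0.43). From 24 to 48 h it was 0.94 for miR-27b (SE 0.43), 0.57 for miR-23b (SE 0.37), 0.32 for miR-23a (SE 0.30), 0.29 for miR-27a (SE 0.35) and -0.35 for miR-24 (SE 0.43). By limma 0 of 5 members passed in either, with adjusted p of 0.753 to 0.983 and 0.926 to 0.96, beside 0% of 376 names. miR-23a in the first step and miR-27b in the second had an unadjusted p under 0.05, beside 4.79% of names in each step. From 12 to 48 h 0 members passed, with 0 at an unadjusted p under 0.05, beside 0% and 2.93% of names. The sign for miR-24 turned in both steps under centring on the median or the 75th percentile, without normalization and in the authors' processed values, for example to -0.97 from 12 to 24 h with centring on the 75th percentile. The sign for miR-23b from 12 to 24 h turned without the first 12 h array (0.10) or without the first (0.04) or second (0.07) 24 h array of the hepatectomy group. The size of the 12 to 24 h step also turned on the scaling. The members' median was -0.16 on the quantile scale, -1.60 after median centring, -1.35 after 75th percentile centring, -1.53 in the authors' processed values and -1.97 without normalization, and 0 members passed in any of them. A difference between the shift against sham at 24 h and that at 12 h was thus not shown for any member.

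The a and b paralogues moved together over the 21 hepatectomy arrays, and the permutation tests of their differences, run without replicate numbers, did not pass. Pearson's r across arrays was 0.913 for miR-23a with miR-23b and 0.839 for miR-27a with miR-27b. The median r over all pairs of members was 0.705, against 0.133 over all pairs of the 194 brighter names. These correlations are descriptions: arrays share time groups and raw intensity class, and cross-hybridisation would add to them. The level of miR-23a minus that of miR-23b on the same array averaged -0.25 ± 0.29 at 24 h against -0.17 ± 0.15 at 0 h (SD, n = 3 each), a change of -0.08 (two-sided exact permutation p = 0.9, where 0.1 is the smallest that 3 against 3 arrays allow). Its time means ranged from -0.48 at 48 h to -0.07 at 12 h, within a range of 0.41 that did not pass a permutation F test (p = 0.286, adjusted p = 0.572 over the 4 tests of both pairs and both operations).

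The level of miR-27a minus that of miR-27b averaged 0.15 ± 0.33 at 24 h against -0.16 ± 0.21 at 0 h (SD, n = 3 each), a change of 0.30 (two-sided exact permutation p = 0.3). Its time means spanned 0.78, with the lowest at 2 h (-0.64 ± 0.29) and the highest at 24 h. The permutation F test over the 7 times gave p = 0.0549 and an adjusted p = 0.22, so unequal courses of miR-27a and miR-27b were not established by this test. In sham liver the same difference was -0.68 ± 0.17 at 12 h, -0.65 ± 0.16 at 24 h and -0.62 ± 0.08 at 48 h, and the miR-23a minus miR-23b difference was -0.25 ± 0.18, -0.21 ± 0.06 and -0.19 ± 0.05 at those times (SD, n = 3 each). These did not pass the exact permutation F test over sham times (p = 0.879 and p = 0.918).

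**Figure D3:**
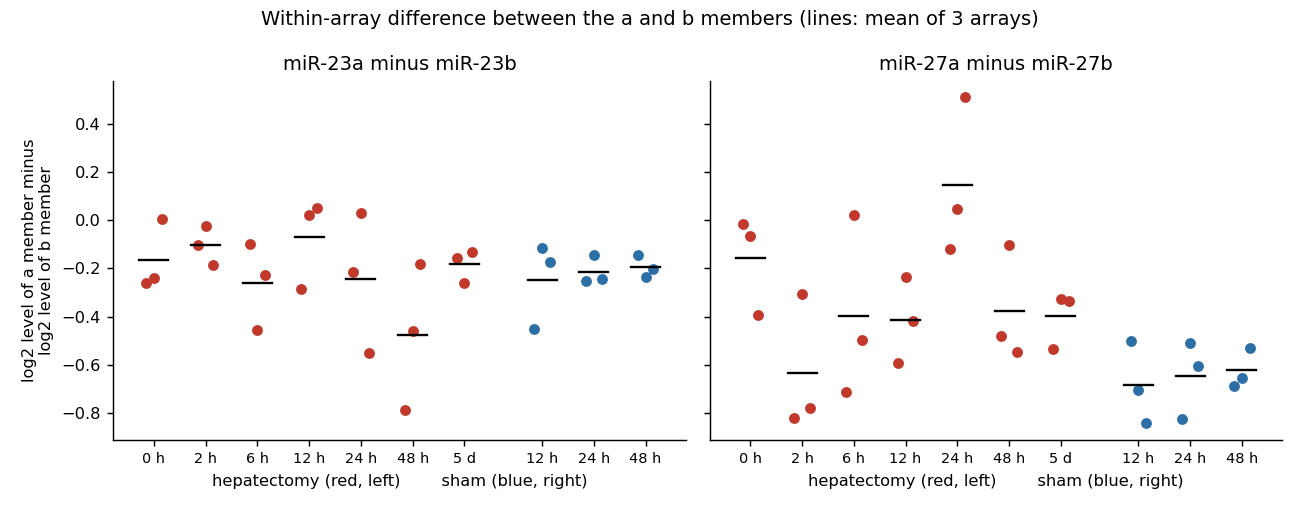
Level of the a member minus that of the b member on each array (y axis, log2 difference) by time after hepatectomy or sham laparotomy (x axis), for miR-23 and miR-27. Points are arrays and each short line is the mean of 3. After hepatectomy the miR-27 difference has its highest mean at 24 h and its lowest at 2 h, and the sham means of miR-27 lie between -0.68 and -0.62.

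miR-24 was set against its cluster mates in the same way, a comparison added after the values were seen. miR-24 minus miR-27b averaged 1.47 ± 0.39 at 24 h against 0.66 ± 0.41 at 0 h, a change of 0.81 (two-sided exact permutation p = 0.1, the smallest that 3 against 3 arrays allow). The change of miR-24 minus miR-23a was 0.60 (p = 0.2, exact), that of miR-24 minus miR-23b was 0.52 (p = 0.1, exact) and that of miR-24 minus miR-27a was 0.51 (p = 0.3, exact). All 4 were positive, that is, miR-24 was less reduced in the mean. Over the 7 hepatectomy times none of the 4 passed the permutation F test (p from 0.121 to 0.84, adjusted p from 0.502 to 0.84 over 8 tests), so a separate course of miR-24 was not established. Across arrays, miR-24 correlated with the other members at r of 0.415 to 0.648, below the r of 0.666 to 0.913 among those 4.

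The passenger strands come from the opposite arms of the same hairpins and are usually degraded. Of 6 listed, 4 were on the hepatectomy chips and 0 of those 4 passed by limma at 24 h against 0 h, with differences of 0.07 for miR-23a* (adjusted p = 0.904), 0.16 for miR-27a* (adjusted p = 0.484), 0.29 for miR-24-1* (adjusted p = 0.196) and -0.16 for miR-24-2* (adjusted p = 0.564). Against sham at 24 h the 4 differed by -0.10 to 0.13, and 0 passed. Their summed normalized level was 846 to 909 at 24 h against 775 to 849 at 0 h. On the hepatectomy arrays the mean level of miR-23a* lay at the 5.15 percentile of all names, that of miR-27a* at 43.3, that of miR-24-1* at 53.4 and that of miR-24-2* at 73.7, against 83.5 to 97.7 for the 5 members. At the low level of miR-23a* a decrease as large as that of the miR-23 and miR-27 guide strands may not have been detectable. Whether such a decrease was detectable for the other passenger strands was not tested.

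By the likeness of their 7 time means to the centred mean of the members, the names most like the group among 189 others of above-median level were miR-126 (Pearson r = 0.977), let-7d (r = 0.976), miR-26a (r = 0.968), miR-21 (r = 0.962) and let-7a (r = 0.955). The median r over the 189 was -0.171, and 10 had an r above 0.9. The members' own r with that mean, of which each is a part, were 0.959 for miR-23a, 0.983 for miR-23b, 0.97 for miR-27b, 0.896 for miR-27a and 0.844 for miR-24. Among these 5 other names the difference at 24 h against 0 h was -1.97 for miR-26a (limma adjusted p = 0.000298), -1.49 for let-7d (adjusted p = 0.000581), -1.16 for let-7a (adjusted p = 0.00431), -1.52 for miR-126 (adjusted p = 0.0113) and -0.77 for miR-21 (adjusted p = 0.295). These names were picked by time means that include 0 h and 24 h. Their lower level at 24 h thus follows in part from the choice and is no separate result. The arrays behind all these means are the same 21, with their intensity classes.

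**Figure D4:**
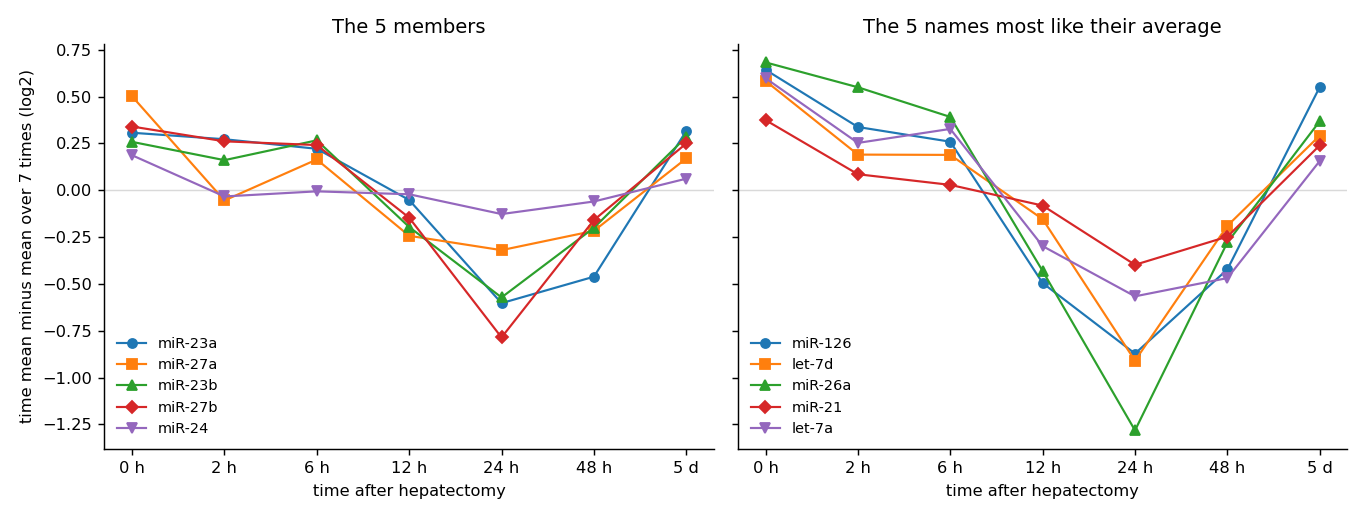
Mean level at each time after hepatectomy, centred on the name's own mean over 7 times (y axis, log2), for the 5 members and the 5 other names with the most similar course. All lines have their low point at 24 h, and miR-24 has the flattest. The other names were picked for this likeness, so their shared low point follows in part from the choice.

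Levels of cell type markers were read beside these results. Of 2 endothelial names, miR-126 was lower at 24 h against 0 h (-1.52, limma adjusted p = 0.0113) and miR-126*, from the same hairpin, was not (0.01, adjusted p = 0.976). The summed level of the 2 was 531 to 619 at 24 h against 1100 to 1760 at 0 h, and on the joint scale 478 to 851 in hepatectomy liver against 817 to 933 in sham liver at 24 h. Of 3 measured hepatocyte names, 0 passed, with miR-122, the main hepatocyte miRNA, at -1.41 (limma adjusted p = 0.105). All 3 were lower in the mean at 24 h against 0 h (-1.41 to -0.65) and higher at 5 d against 24 h (0.85 to 1.43). Against sham at 24 h they differed by -0.54 to 0.13. Their summed level was 2230 to 12700 at 24 h against 10900 to 14800 at 0 h. On the joint scale it was 11300 to 12500 in hepatectomy liver against 12300 to 13000 in sham liver, with miR-122 at 0.00 because it held the top rank on the 24 h arrays of both operations. Of 5 mesenchymal and stellate names 1 was lower at 24 h against 0 h and of 5 measured leukocyte names 1 was lower and 1 higher, while 0 of 2 erythroid and 0 of 5 biliary names passed. Against sham at 24 h, 2 of 5 mesenchymal and stellate names and 1 of 5 leukocyte names were lower, 1 of 5 biliary names was higher, and 0 of 2 endothelial and 0 of 2 erythroid names passed. Their summed levels at 24 h against 0 h were 1270 to 2190 against 1680 to 2590 for the mesenchymal and stellate names, 920 to 1200 against 1060 to 1470 for the leukocyte names, 433 to 458 against 395 to 431 for the erythroid names and 1040 to 1200 against 967 to 1210 for the biliary names. The part of cell composition, raw intensity and spread of signal in the lower miR-23 and miR-27 levels was not tested.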

How the data were processed

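Per the labels' protocols, liver RNA was hybridised to febit chips and labelled with biotin by primer extension. The authors deposited raw spot intensity on a linear scale, background-subtracted intensity (which differed from the raw median by 1 constant on each array) and a processed value on a log2 scale, deposited for 323 names, made by steps not given in the sources used here. 4 arrays carried another replicate letter of their own group in the raw table than in the other tables (replicates 1 and 2 of the 2 h group, 1 and 3 of the 48 h group). Replicate numbers follow the raw tables.

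Raw intensity was background-corrected with normexp (offset 50), log2 transformed, quantile normalized over spots and averaged per name, in R 4.3.3 with limma 3.58.1, separately for the hepatectomy and sham tables. For hepatectomy against sham, spots were averaged first and the 376 shared names quantile normalized over 30 arrays. Missing spots were 0.585% and 0.811% and were left out of the averages. limma's lmFit and eBayes were run on all names, with Benjamini-Hochberg adjustment within each of 18 comparisons at a threshold of 0.05. Differences between 2 members on an array were tested over times by permutation of their F ratio in numpy 2.4.6, with 100000 resamples for hepatectomy and exactly for sham. Single times were set against 0 h, or 12 h in sham, by a two-sided exact permutation test of the difference in means. The F test p-values were adjusted by Benjamini-Hochberg in scipy 1.17.1. All fits and permutation tests were tested on simulated data.

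Members and lists were chosen with earlier results of these data known. The names given are the 5 members, their passenger strands, the 5 names most alike in course and the cell type markers. Replicate numbers were not taken to pair the arrays. Alternatives were other background corrections, scalings and spot averages, the authors' values, names above the median level, a replicate block, an intensity class as a block or its brighter arrays alone (limit 800), array weights, the compared groups alone and leaving out each array. Added after the values were seen were the spread of signal as a covariate, the miR-24 differences and a blocked permutation test that shuffles within replicate numbers.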

Additional observations from a re-analysis of the deposited data

How the results depend on the processing

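Each alternative changed 1 choice at a time, except that the authors' values differ in background, spot summary and the names held (323, against 388, 680 or 376) together, and the processed ones in scaling too. For the member differences given in the report, 517 of 610 values under alternatives other than leaving out an array kept their direction and side of the threshold, 6 lost and 47 gained a call and 40 turned in sign. Among 480 values with 1 array left out, 458 kept both, 7 lost and 3 gained a call and 12 turned. Of the differences not given singly (2 h, 6 h and 5 d against 0 h, between sham times and from 12 to 48 h), 97 of 375 turned in sign, and 38 of 240 with 1 array left out. The causes were not tested.

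Members called at 24 h against 0 h, 0 of 5 in the report, were 4 in the authors' processed values, 4 under array weights, 4 with the compared groups alone, 2 with names above the median level, 2 with the intensity class as a block, 1 with the median of spots and 0 to 3 with 1 array left out. At 12 h and 48 h, 0 in the report, they were 1 and 1 from the spot median, and under array weights 1 and 2. With the compared groups alone 1 was called at 12 h, and with the intensity class as a block 1 at 48 h. For 5 d against 24 h they were 3 with array weights and 1 with the compared groups alone, and the F test over 7 times called 4 with array weights. The array weights stopped before their iteration converged. Against sham at 24 h, 4 in the report, 2 were called without normalization, 3 from the authors' background-subtracted values, 3 with the signal spread in the fit, 5 after either centring and in the authors' processed values, and 2 to 4 with 1 array left out. Against sham at 48 h, 1 in the report, 0 were called without normalization, 0 from the authors' background-subtracted values, 2 after median centring, 5 after 75th percentile centring, 4 from the authors' processed values and 0 to 1 with 1 array left out. Against sham at 12 h, 0 in the report, 1 was called after 75th percentile centring, 2 from the authors' processed values and 2 with the signal spread in the fit.

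With the replicate number as a block, 4 members were called at 24 h against 0 h (adjusted p 0.0335 to 0.0416), and the permutation F test of the miR-27a minus miR-27b difference over the 7 times (range of time means 0.78) passed when residuals were shuffled over all arrays (adjusted p = 0.033). When arrays were shuffled within replicate numbers instead, a choice made after the values were seen, it did not pass (adjusted p = 0.0577). The block changed no other call. Arrays with the same number correlated in their deviations at -0.765 to 0.783 (median 0.15, against -0.128 for other numbers) in hepatectomy and -0.194 to 0.37 (median 0.216, against -0.0673) in sham. Not every correlation was above 0.1, so the numbers were not taken as pairs, although the medians were higher for shared numbers. Of the arrays, 7 of 21 hepatectomy and 5 of 9 sham correlated best with their own number.

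miR-24 turned in sign most often. Against 0 h, it was 0.12 at 12 h without normalization, 0.23, 0.79 and 0.31 at 12, 24 and 48 h with the authors' background-subtracted values, and 0.32, 0.48 and 0.43 at those times with the signal spread in the fit. For 5 d against 24 h, it was -0.68 with the authors' background-subtracted values, -0.25 with the signal spread, -0.32 with the intensity class as a block and -0.47 on the brighter arrays alone. With 1 array left out it was -0.56 to 0.13 at 48 h against 0 h and -0.071 to 0.52 for 5 d against 24 h. Against sham at 12, 24 and 48 h, miR-24 was -0.17, -1.76 and -1.09 without normalization, -0.89, -2.11 and -1.62 after median centring, -1.07, -2.04 and -1.67 after 75th percentile centring and -1.62, -2.23 and -2.09 in the authors' processed values. At 12 h against sham it was also -0.054 with the authors' background-subtracted values, -0.0034 with the signal spread and -0.055 to 0.19 with 1 array left out, and at 48 h it was -0.015 without background correction and -0.21 to 0.45 with 1 array left out. Its change from 12 to 24 h and from 24 to 48 h against sham was -1.59 and 0.67 without normalization, -1.22 and 0.49 after median centring, -0.97 and 0.38 after 75th percentile centring, -0.61 and 0.14 in the authors' processed values, and -0.086 to 0.69 and -0.75 to 0.063 with 1 array left out.

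The other members turned less often. At 12 h against 0 h, miR-23a was 0.12 with the authors' background-subtracted values and 0.023 with the signal spread in the fit, and miR-27b was 0.071 at 48 h against 0 h with the signal spread. Against sham at 12 h without normalization, miR-27a was 0.26 and miR-27b 0.10. For the change from 12 to 24 h against sham, miR-27a was 0.072 with the signal spread and miR-23b was -0.57 to 0.10 with 1 array left out. The 24 h against 0 h change of miR-23a minus miR-23b, -0.08 in the report, was 0.035 without background correction, 0.0063 on the brighter arrays alone and -0.22 to 0.075 with 1 array left out. The 24 h against 12 h change in sham liver was 0.034 for miR-23a minus miR-23b and 0.036 for miR-27a minus miR-27b. It was -0.025 and -0.17 without normalization and after either centring, which act alike on a difference within an array, -0.17 and -0.18 in the authors' processed values, -0.10 and -0.044 from the spot median, and -0.069 to 0.10 and -0.044 to 0.13 with 1 array left out. The second of these was -0.0073 without background correction.

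Limits lie in the 3 arrays per group, in raw intensity classes and signal spread that differ between times, and in chip layouts that differ between operations. The miR-27a and miR-27b signals were near or below background on single arrays and low beside the background at 24 h. Normalization by quantiles fixes the values that ranks can take. On the joint scale, where spots were averaged first, a name at the top of every array therefore cannot change.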
